A study of Mus musculus with 12 samples.

Results

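Runx1, Spi1, Cebpa, Cebpb, Cebpd, Irf5, Irf8 and Ikzf1 encode transcription factors that direct myeloid gene expression, and their counts were followed through cerebral ischemia/reperfusion in mouse brain. The members were chosen by name, as the rows of the deposited count table that carry these 8 symbols, which is 8 of the 39756 genes in the table. All 8 had enough counts to be tested, among 17558 genes tested in all. RNA of the ischemic hemisphere was sequenced from 12 male C57BL/6J mice of 9 to 10 weeks, 4 in each of 3 groups. Sham mice underwent sham surgery. Vehicle mice were given saline and had the middle cerebral artery closed by a filament for 45 min and then reopened, which is called tMCAO. LJP mice had the same occlusion and were given Laminaria japonica polysaccharide (LJP), a brown alga polysaccharide, dissolved in saline. By the methods, all 3 groups were dosed by mouth daily for 14 days before surgery and treatment continued afterwards, with saline in the Sham and Vehicle groups. The study carried the middle of 3 LJP doses into the experiments that followed its dose comparison, but neither its text nor the labels state the dose or the time after surgery for the sequenced mice. No label says whether a number shared between groups marks a shared cage or surgery day, and the labels place all mice in 1 batch.

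PU.1 (encoded by Spi1) and RUNX1 open and mark the regulatory regions of myeloid genes, and IKZF1 (Ikaros) is a zinc finger factor of blood cell development. The C/EBP proteins bind a shared DNA site as dimers: C/EBP alpha drives granulocyte and monocyte maturation, while C/EBP beta and C/EBP delta are known for rapid induction by inflammatory cytokines and for activating acute phase genes, and are also made by astrocytes and other cells. IRF8 works with PU.1 in microglia and macrophages, and IRF5 carries signals from Toll-like receptors to cytokine genes. In the brain, microglia are the resident cells that use PU.1, IRF8 and RUNX1, and blood monocytes and neutrophils that enter injured tissue use the same families.

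Promoters are shown for Cebpb and Irf8, because these members had the lowest and the highest share of their Vehicle increase left in the LJP mice, in CPM and on the log2 scale. RefSeq promoter windows (GRCm38.p6) were at hand for 6 of the 8 members, 9 windows in all, and the 250 bases before the annotated start are printed, with none of the bases after it.
Cebpb, plus strand, chr2:167688665-167688914: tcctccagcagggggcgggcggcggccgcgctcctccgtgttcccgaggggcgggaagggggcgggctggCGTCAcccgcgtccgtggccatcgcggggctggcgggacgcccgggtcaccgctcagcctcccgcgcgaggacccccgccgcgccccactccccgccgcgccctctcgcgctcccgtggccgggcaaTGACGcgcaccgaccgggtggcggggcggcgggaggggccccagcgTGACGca
Irf8, plus strand, chr8:120736108-120736357: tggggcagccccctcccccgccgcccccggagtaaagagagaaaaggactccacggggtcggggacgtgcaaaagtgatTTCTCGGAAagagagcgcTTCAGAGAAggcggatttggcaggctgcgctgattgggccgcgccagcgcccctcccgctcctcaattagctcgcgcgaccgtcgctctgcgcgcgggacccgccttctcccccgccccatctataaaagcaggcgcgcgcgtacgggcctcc
The capitals in Cebpb mark the half-site TGACG of the cyclic AMP response element, searched on both strands. It matched at 3 places, starting 180, 53 and 7 bases before the start, and 17.8% of the 32851 RefSeq windows held at least 1 match over the same 250 bases. The capitals in Irf8 mark TTCNNNGAA, the palindromic letters of a STAT site, which matched at 171 and 153 bases before the start and in 7.02% of all windows. The second Irf8 window, at a start further inside the gene, held no match to it. Of the other motifs searched, C/EBP letters (TTNNGNAA, 36.8% of windows) were found in 1 window each of Irf5 and Ikzf1, and Ikaros letters (TGGGAA, 21.6%) in 1 window each of Irf5 and Irf8. In Irf5 these matches overlap. RUNX letters (TGTGGT, 14%), ETS letters read by PU.1 (GAGGAAG, 10.6%), IRF letters (GAAANNGAA, 7.13%) and AP-1 letters (TGANTCA, 6.75%) had no match in any of the 9 windows. These matches are letters only, and binding was not measured. The Cebpb and Cebpa windows held 81.6% and 66.4% G or C, and the 2 Runx1 windows 67.6% and 45.6%.

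Depth was alike among the mice, with total counts between 17960353 and 22216315. Levels are in CPM, meaning counts divided by library size after TMM scaling, and a count of 0 allows up to 3 counts, 0.129 to 0.173 CPM. Microglia markers, expected in brain, were present in every mouse. Markers of airway epithelium, which brain should lack, summed to 8.55 to 13.3 CPM in Sham, 8.53 to 10.7 in Vehicle and 0.358 to 0.669 in LJP mice, and their part in the results was not tested.

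All 8 factors rose after ischemia/reperfusion in the Vehicle group, by 3.35-fold (Ikzf1) to 17.7-fold (Cebpd). In comparison, 22.7% of all tested genes were higher in Vehicle than in Sham mice at an adjusted p below 0.05. Every Vehicle mouse was above every Sham mouse for all 8 factors, a pattern found in the same direction for 20.7% of tested genes. The median log2 fold change of the members was 2.01, against 0.00 (3.54e-05) over all tested genes. In whole hemisphere RNA, more myeloid cells and more RNA per cell cannot be told apart.

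**Figure D1:**
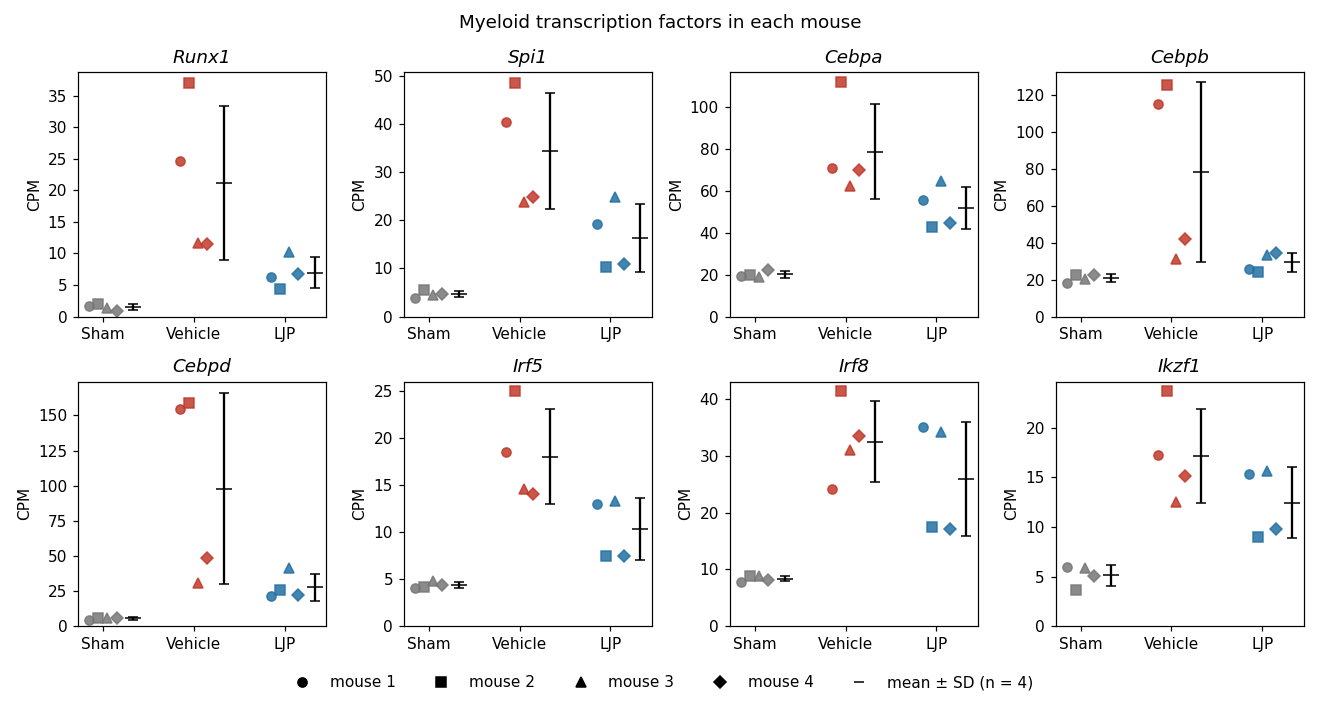
CPM (vertical axes, from 0) of each factor in the 4 Sham, 4 Vehicle and 4 LJP mice, with 1 symbol per mouse number and the mean ± SD in black. For Cebpd, Vehicle mice 1 and 2 stand at 154 and 159 CPM, above Vehicle mice 3 and 4 at 30.6 and 48.2, while all Sham mice lie between 4.21 and 6.17.

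Spi1 (Entrez Gene 20375, chromosome 2 from 91082374 to 91115759 of GRCm38, plus strand), the gene of PU.1, had 3.92, 5.50, 4.38 and 4.77 CPM in Sham mice 1 to 4. Vehicle mice had 40.4, 48.6, 23.8 and 24.8 CPM of it, and LJP mice 19.3, 10.2, 24.8 and 10.9. All Vehicle mice were thus above all Sham mice, and LJP mouse 3 reached the level of Vehicle mice 3 and 4. The log2 fold change between Vehicle and Sham was 2.89 (standard error 0.32, edgeR adjusted p = 0.000124).

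Runx1 (12394, chromosome 16 from 92601466 to 92826074, minus strand) was the least abundant member per kilobase in the Sham group, with 1.73, 1.96, 1.37 and 0.881 CPM. It reached 24.7, 37.0, 11.6 and 11.5 CPM in the Vehicle group, and LJP mice had 6.22, 4.45, 10.3 and 6.74. Here the 3 groups did not overlap, with LJP between Sham and Vehicle. Runx1 rose 14.3-fold from Sham to Vehicle (3.84 ± 0.44 standard error on the log2 scale, edgeR adjusted p = 0.000139).

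Ikzf1 (22778, chromosome 11 from 11684962 to 11772930, plus strand) had 5.94, 3.65, 5.86 and 5.08 CPM in Sham mice. Vehicle mice had 17.3, 23.7, 12.5 and 15.2 CPM, and LJP mice 15.4, 8.95, 15.7 and 9.81. The LJP mice 1 and 3 lay inside the Vehicle range, and LJP mice 2 and 4 below it. The rise from Sham to Vehicle was the smallest among the members (1.74 ± 0.25 standard error on the log2 scale, edgeR adjusted p = 0.000432).

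Cebpa (12606, chromosome 7 from 35119293 to 35121928, plus strand) was already at 19.3, 19.9, 18.8 and 22.3 CPM in Sham mice. It stood at 70.6, 112, 62.1 and 69.9 CPM in the Vehicle group and at 55.3, 42.7, 64.3 and 44.6 in LJP mice. Only LJP mouse 3 entered the Vehicle range. Cebpa had the smallest p-value of the members between Vehicle and Sham (3.92-fold, or 1.97 ± 0.19 standard error on the log2 scale, edgeR adjusted p = 6.92e-05).

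Cebpb (12608, chromosome 2 from 167688915 to 167690432, plus strand), whose promoter is printed above, had 18.3, 22.8, 20.3 and 22.5 CPM in Sham mice. In Vehicle mice it had 115, 126, 31.3 and 42.0 CPM, and in LJP mice 25.9, 24.2, 33.2 and 34.6. Vehicle mice 1 and 2 were far above the other 10 mice, and the remaining Vehicle mice lay close to the LJP mice. The log2 fold change between Vehicle and Sham was 1.91 (standard error 0.37, edgeR adjusted p = 0.00229).

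Cebpd (12609, chromosome 16 from 15887286 to 15889545, plus strand) showed the same split more strongly. Sham mice had 4.21, 5.61, 6.14 and 6.17 CPM, Vehicle mice 154, 159, 30.6 and 48.2, and LJP mice 21.6, 25.6, 41.7 and 21.9. The Vehicle mice spanned 5.19-fold from lowest to highest, the widest spread of any member in any group. Its rise from Sham to Vehicle was the largest of the 8 (4.14 ± 0.51 standard error on the log2 scale, edgeR adjusted p = 0.000181).

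Irf5 (27056, chromosome 6 from 29526130 to 29541869, plus strand) had 4.09, 4.20, 4.82 and 4.41 CPM in Sham mice. Vehicle mice had 18.6, 25, 14.5 and 14.1 CPM, and LJP mice 12.9, 7.52, 13.3 and 7.47. As with Runx1, the 3 groups did not overlap. The log2 fold change between Vehicle and Sham was 2.04 (standard error 0.24, edgeR adjusted p = 0.000151).

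Irf8 (15900, chromosome 8 from 120736358 to 120756694, plus strand), the second promoter printed above, had 7.79, 8.77, 8.77 and 8.19 CPM in Sham mice. Vehicle mice had 24.2, 41.5, 31.0 and 33.6 CPM, and LJP mice 35.1, 17.5, 34.3 and 17.1. In contrast to Cebpb and Cebpd, Vehicle mouse 1 was the lowest of its group, and LJP mice 1 and 3 were above 3 of the 4 Vehicle mice. The log2 fold change between Vehicle and Sham was 1.96 (standard error 0.25, edgeR adjusted p = 0.000235).

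Each member's separation of Vehicle from Sham gave p = 0.0286 in a two-sided exact permutation test over mice, the smallest that 4 against 4 allow. The overlap of some genes with neighbours limits the values. The last 1043 bases of Irf5 lie within Tnpo3, transcribed from the other strand with 15918 counts over the 12 mice, and the last 322 bases of Cebpd lie within Spidr, with 1188 counts. The library kit named in the labels does not mark strand, so reads in these stretches cannot be assigned to either gene with certainty. The genes Gm30281 and Gm11999, which overlap Runx1 and Ikzf1, had 4 and 0 counts in all.

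Per kilobase of transcript, the order of levels in the Sham group was Cebpb (13.8 ± 1.39 CPM per kilobase, SD, n = 4), Cebpa (7.61 ± 0.60), Cebpd (2.45 ± 0.41), Irf8 (2.44 ± 0.14), Spi1 (2.34 ± 0.34), Irf5 (1.33 ± 0.098), Ikzf1 (0.803 ± 0.17) and Runx1 (0.201 ± 0.064). Cebpd, Irf8 and Spi1 overlapped among the Sham mice, whereas every other neighbouring pair kept its order without overlap. In the Vehicle group Cebpb (51.8 ± 32.1) and Cebpd (43.4 ± 30.1) led, and all neighbouring pairs in the order had overlapping ranges. Even so, Cebpb was above Cebpd within each of the 4 Vehicle mice. In the LJP group Cebpa (19.6 ± 3.82) and Cebpb (19.4 ± 3.39) overlapped, and Runx1 was again the lowest, at 0.938 ± 0.33 CPM per kilobase.

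In the LJP group, treated after the same occlusion, mean levels of all 8 factors were lower than in the Vehicle group, but none passed an adjusted p of 0.05 in edgeR's quasi-likelihood test. That test called only 4 of 17558 genes lower (0.0228%). Of these 4, 3 were among the airway epithelium markers described above. At an unadjusted p below 0.05, 6 of the 8 members were lower, against 17.4% of all tested genes. These were Cebpd (log2 fold change -1.83, standard error 0.45), Runx1 (-1.62, 0.38), Cebpb (-1.42, 0.36), Spi1 (-1.08, 0.29), Irf5 (-0.81, 0.23) and Cebpa (-0.60, 0.18), with edgeR adjusted p-values from 0.0678 to 0.0720. Irf8 (-0.32, standard error 0.24, edgeR adjusted p = 0.360) and Ikzf1 (-0.46, standard error 0.24, edgeR adjusted p = 0.203) missed both limits. The median over the members was -0.94, against -0.0017 over all tested genes.

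The call for LJP against Vehicle depended on the test. DESeq2 called the same 6 members lower at an adjusted p of 0.05, where it called 9.36% of genes lower, and so did the thresholds of the study's methods (log2 changes beyond 0.58 in size, at unadjusted p-values under 0.01), which 5.89% of genes met in that direction. Without the filter on low counts, edgeR called Runx1, Spi1, Cebpb and Cebpd lower, with 1.8% of genes. It called the 6 members lower without Vehicle mouse 3, when 13.1% of genes were lower, and without Vehicle mouse 4, when 8.38% were. For every member except Irf8, both left-out mice were below the remaining Vehicle mice. Leaving out any other mouse gave 0 members. By exact permutation over mice, only Runx1 and Irf5 had every LJP mouse below every Vehicle mouse (p = 0.0286, two-sided), a pattern shared by 5.91% of tested genes. For Cebpd, Spi1 and Cebpa the exact p was 0.0571, for Cebpb 0.0857, for Ikzf1 0.200 and for Irf8 0.314.

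**Figure D2:**
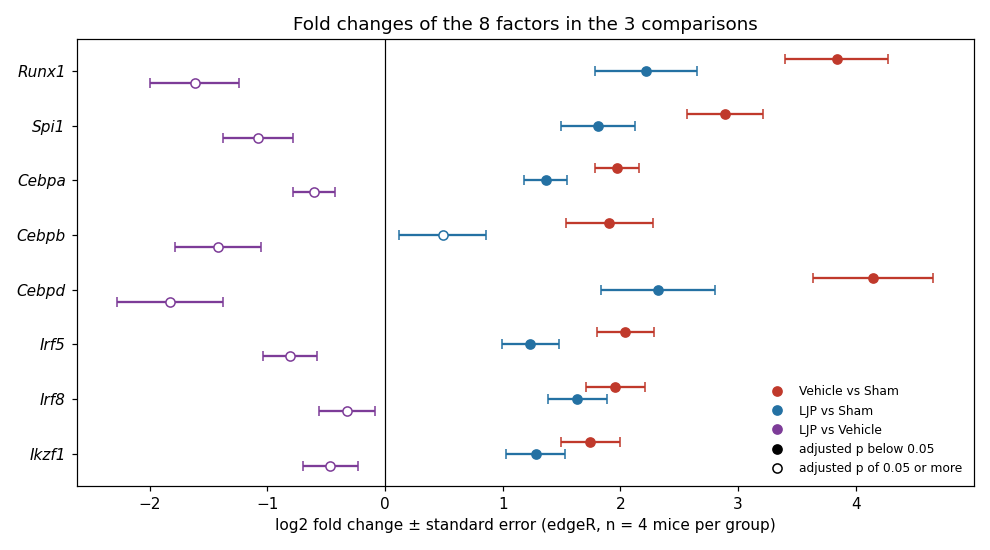
Log2 fold change (horizontal axis) with its standard error from edgeR for each factor in the 3 comparisons, with filled points for an adjusted p below 0.05. All 8 points of Vehicle vs Sham are filled, 7 of 8 of LJP vs Sham are, and none of LJP vs Vehicle is.

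Against the Sham group, 7 of the 8 factors remained higher in the LJP mice, and 3.85% of all tested genes were higher at the same limit. The largest difference was that of Cebpd (2.32 ± 0.48 standard error on the log2 scale, edgeR adjusted p = 0.0163), followed by Runx1 (2.22, 0.43, adjusted p = 0.0107), Spi1 (1.81, 0.32, 0.00583) and Irf8 (1.63, 0.25, 0.00285). Cebpa differed by 1.37 (standard error 0.18, edgeR adjusted p = 0.00160), Ikzf1 by 1.28 (0.25, 0.0105) and Irf5 by 1.24 (0.24, 0.0105). Cebpb did not pass, at 29.5 ± 5.15 CPM in LJP and 21 ± 2.11 in Sham mice (SD, n = 4), a log2 difference of 0.49 ± 0.37 standard error (edgeR adjusted p = 0.522), although its LJP and Sham mice did not overlap. All 8 members had every LJP mouse above every Sham mouse (exact permutation p = 0.0286, two-sided), as had 12.9% of tested genes. When only the Sham and LJP groups were fitted, with 16959 genes tested, Cebpb passed as well (log2 fold change 0.48, edgeR adjusted p = 0.00998), and 12.1% of genes were then higher. Cebpd lost its call without any 1 of the Sham mice or without LJP mouse 3, when 6 members were called and its adjusted p reached at most 0.0665.

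The mean difference from Sham that was left in the LJP group, as a percent of the Vehicle difference in CPM, was 14.7% for Cebpb and 24% for Cebpd, whose Vehicle means were carried by Vehicle mice 1 and 2. It was 27.6% for Runx1, 39.2% for Spi1, 43.5% for Irf5 and 54.1% for Cebpa. Ikzf1 and Irf8 kept 60.8% and 72.8%. As a ratio of log2 fold changes, a scale chosen after seeing the data, Cebpb again had the lowest share (25.6%) and Irf8 the highest (83.4%), whereas Cebpd, at 55.9%, lay next to Runx1 (57.8%), Irf5 (60.5%) and Spi1 (62.7%). Leaving out 1 mouse moved the CPM share of Cebpb between 11.6% and 20.3% and that of Cebpd between 18.9% and 30.7%, both highest without Vehicle mouse 2. These shares rest on the same Sham and Vehicle mice, are given as a description and were not tested against each other.

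**Figure D3:**
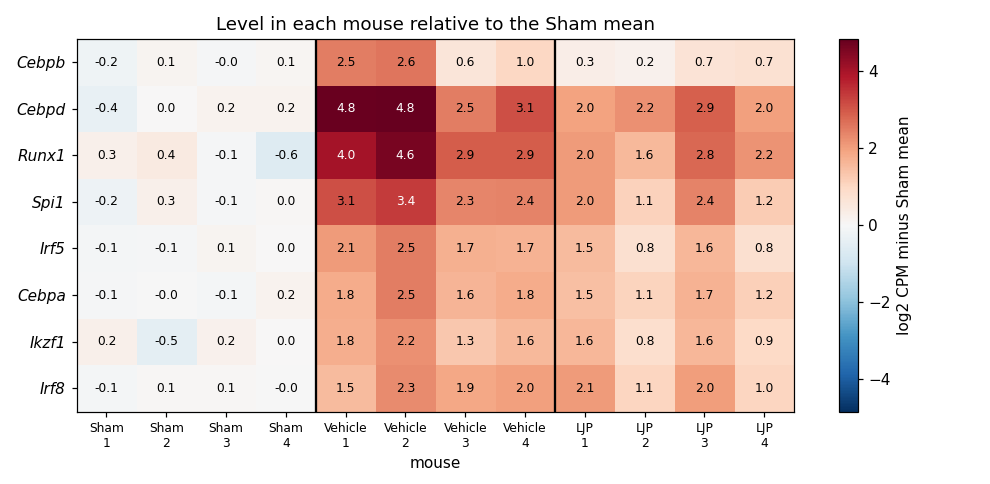
Log2 CPM of each factor (rows, ordered by the share of the Vehicle difference in CPM left in the LJP group) in each mouse (columns) minus the Sham mean. Vehicle mice 1 and 2 are darkest for Cebpd, at 4.79 and 4.83, while for Irf8 the LJP mice 1 and 3 (2.05 and 2.02) are as dark as Vehicle mouse 4 (1.99).

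Within the groups, the members varied together to different degrees. Deviations of log2 CPM from the group means over the 12 mice had a Pearson r of 0.93 for Cebpb with Cebpd and 0.93 for Spi1 with Irf5. For Cebpb with Irf8 r was 0.03, and for Cebpd with Irf8 0.14. Runx1 had 0.78 with Cebpb, 0.75 with Spi1 and 0.34 with Irf8. Spi1 had 0.65 with Cebpb, 0.73 with Cebpd and 0.70 with Irf8. Without the 2 mice that deviated most in either gene, r fell to 0.84 for Cebpb with Cebpd and 0.88 for Spi1 with Irf5, and Runx1 had 0.61 to 0.63 with Cebpb and 0.57 to 0.66 with Spi1. The values with Irf8 were then -0.27 and 0.03 for Cebpb, -0.04 and 0.09 for Cebpd, and 0.26 and 0.27 for Runx1. For Spi1 with Irf8 they were 0.50 and 0.52. The points are 12 mice that share libraries and tissue pieces between genes, and these values describe them without a test.

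The genes whose deviations were most like those of a member, over the 12 mice, differed between the factors. Irf8 was closest to Grn (r = 0.99), C1qa (0.98) and Ctsz (0.98), which encode the lysosomal growth factor progranulin, a complement chain made by microglia and cathepsin Z. Spi1 was closest to Ch25h (0.97), Itgam (0.97) and Syngr2 (0.97), and Itgam encodes the integrin CD11b of myeloid cells. Irf5 was closest to Itgb2 (0.96), the partner chain of CD11b, to Milr1 (0.96) and to Cyba (0.95), a subunit of the phagocyte NADPH oxidase, and Ikzf1 to Lcp2 (0.96), an adaptor of immune receptors, Isg20 (0.94) and Ankrd49 (0.94). By contrast, Cebpd was closest to Ezr (0.99), which encodes the membrane linker ezrin, Hnrnpul1 (0.97) and Hspb1 (0.97), a small heat shock protein, and Cebpb to Deptor (0.98), an mTOR inhibitor, Mapk6 (0.98) and the lipid droplet gene Hilpda (0.98). Runx1 was closest to Gm10658 (0.98), Arcn1 (0.95) and Rragc (0.95), and Cebpa to Casp8 (0.98), Copz1 (0.98) and Scamp2 (0.98). These genes were picked for their r, and without the 2 mice whose deviation of the member lay farthest from its median the values were between 0.913 and 0.993.

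Sums of cell type marker lists also differed between groups and mice. Homeostatic microglia markers (10 of 10 tested) summed to 252 to 259 CPM in Sham, 321 to 829 in Vehicle and 456 to 888 in LJP mice. They were lowest in Vehicle mouse 1 among the Vehicle mice and highest in LJP mice 1 and 3 (880 and 888) among the LJP mice, the mice in which Irf8 was also lowest and highest in its group. Cebpb and Cebpd, by contrast, were near their highest in Vehicle mouse 1. Markers of monocytes and infiltrating macrophages (5 of 9 tested) summed to 101 to 103 CPM in Sham, 259 to 1249 in Vehicle and 143 to 285 in LJP mice, and were highest in Vehicle mice 1 and 2 (628 and 1249). Most of this sum was Fn1, the fibronectin gene, with 83.4 to 86.6, 229 to 1098 and 120 to 250 (249.9) CPM. Without it the list summed to 15.4 to 17.5 CPM in Sham, 29.9 to 171 in Vehicle and 23.4 to 34.6 in LJP mice, and was highest in Vehicle mouse 1 instead of Vehicle mouse 2. Border macrophage markers (7 of 7 tested) ranged from 12.2 to 15, from 33.9 to 207 and from 16.6 to 32.8 CPM.

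Neutrophil markers (9 listed, none of which passed the filter on low counts) summed to 0.327 to 0.519 CPM in Sham and 0.307 to 1.17 in LJP mice. In Vehicle mice 1 to 4 they were at 167, 40.7, 0.754 and 5.82 CPM, and Cxcr2, Ly6g and Retnlg were at 0 in every Sham mouse. Endothelial markers (5 of 5 tested) summed to 174 to 193 CPM in Sham, 254 to 1311 in Vehicle and 165 to 230 in LJP mice. Vehicle mice 1 and 2 thus carried the highest levels of every member except Irf8, together with the highest monocyte, border macrophage, neutrophil and endothelial sums. B cell markers summed to at most 2.19 CPM in any mouse. Sums of T cell markers were 20.1 to 26.3 CPM in Sham, 4.21 to 6.85 in Vehicle and 8.13 to 13.8 in LJP mice. Most of this was Cd4, with 19 to 25.3, 1.85 to 5.54 and 6.25 to 12.1 CPM, and the other T cell markers together had at most 2.36 CPM in any mouse. Astrocyte markers summed to 3591 to 4066 CPM in Sham, 3468 to 5449 in Vehicle (lowest in mouse 1) and 4200 to 5479 in LJP mice. Neuron markers summed to 5425 to 6085 CPM in Sham mice, 4524, 3548, 5483 and 5300 in Vehicle mice 1 to 4 and 5300 to 6280 in LJP mice. Oligodendrocyte markers summed to 4109 to 5004 CPM in Sham, 5047 to 5732 in Vehicle and 4088 to 5001 in LJP mice, so that every Vehicle mouse was above the mice of both other groups. The part of any cell type in the members' differences was not tested.

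**Figure D4:**
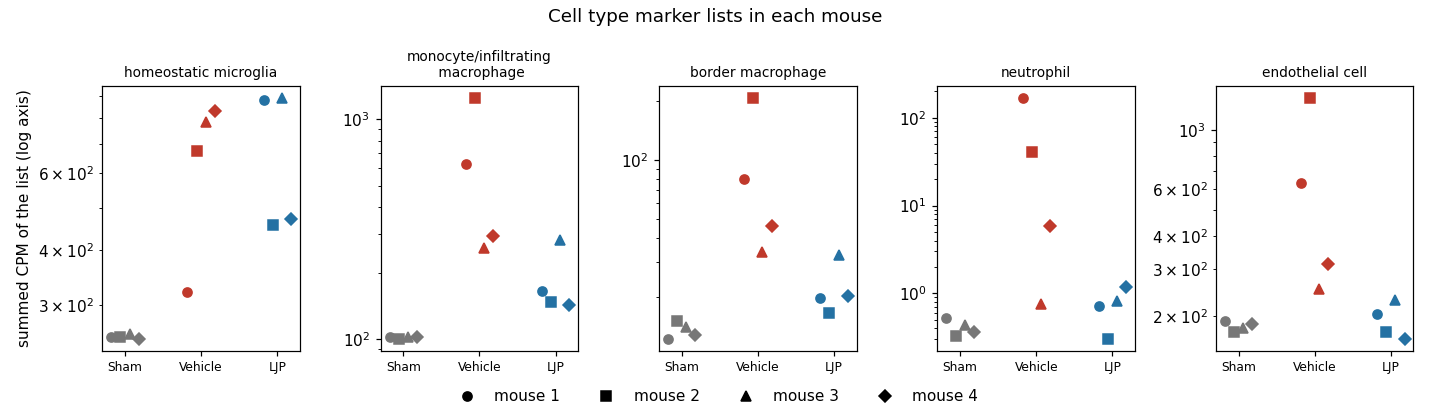
Summed CPM of 5 cell type marker lists in each mouse, on log axes. Vehicle mice 1 and 2 are highest for infiltrating macrophage, border macrophage, neutrophil and endothelial lists, whereas LJP mice 1 and 3 are highest for the microglia list.

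Set against the microglia markers of the same mouse, the members differed in their levels. Per 1000 CPM of homeostatic microglia markers, Irf8 amounted to 30.6 to 34.5 CPM in Sham, 39.5 to 75.3 in Vehicle and 36.2 to 39.9 in LJP mice, with LJP mice above all Sham mice. Irf5 amounted to 16.1 to 18.6 CPM in Sham, 17 to 57.8 in Vehicle and 14.7 to 16.5 in LJP mice, so that Sham and LJP overlapped. Likewise Ikzf1 overlapped (14.3 to 23.4 in Sham, 17.5 to 20.8 in LJP), and Cebpa did (72.6 to 88.6 in Sham, 62.9 to 94.4 in LJP). On this scale Cebpd was at 16.6 to 24.5 CPM in Sham, 38.9 to 481 in Vehicle and 24.5 to 56.1 in LJP mice, and Runx1 at 3.49 to 7.70, 13.9 to 76.9 and 7.07 to 14.3. Cebpb was at 71.9 to 89.5 in Sham, 39.9 to 359 in Vehicle and 29.5 to 73.2 in LJP mice. Spi1 was at 15.4 to 21.6, 29.98 to 126 and 21.9 to 27.9, with LJP mice above all Sham mice. These ratios are descriptions, since 6 of the 10 marker genes themselves rose between Vehicle and Sham.

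The relatives of the members, listed by family, moved less uniformly between Vehicle and Sham, where 17.3% of all tested genes were lower. Of the RUNX family, Cbfb, the DNA-binding partner of the RUNX proteins, rose from 17.9 ± 0.71 to 37.5 ± 12.2 CPM (SD, n = 4; log2 fold change 1.07, edgeR adjusted p = 0.00137). Runx3 had 0, 0, 1 and 1 counts in Sham and 116, 105, 6 and 22 in Vehicle mice (edgeR adjusted p = 0.00301), again highest in Vehicle mice 1 and 2. Runx1t1, a corepressor gene used in neurons, fell (log2 fold change -0.92, edgeR adjusted p = 0.00167), and Runx2 was at 0.24 (adjusted p = 0.123).

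The other C/EBP genes that were tested did not pass between Vehicle and Sham, in contrast to Cebpa, Cebpb and Cebpd. Their log2 fold changes were -0.17 for Cebpg, -0.18 for Cebpz and 0.18 for Ddit3, which encodes the stress factor CHOP, with edgeR adjusted p-values of 0.188, 0.170 and 0.227, although Cebpz was called without Vehicle mouse 2. Of the IRF family, 4 of 6 tested genes rose: Irf7 (log2 fold change 1.90, edgeR adjusted p = 0.0123) and Irf9 (1.5, 0.00165), which serve the type I interferon response, Irf1 (1.88, 0.000825) and Irf3 (0.35, 0.0335). Irf3 lost its call without Sham mouse 1, 2 or 3 or Vehicle mouse 2 (adjusted p up to 0.0942), which left 3. Irf2 did not pass (0.16, adjusted p = 0.314). Of the Ikaros family, Ikzf5 fell by 0.33 on the log2 scale (edgeR adjusted p = 0.00895), while Ikzf2 (-0.08, 0.800) and Ikzf4 (-0.22, 0.218) did not pass. Spib, Spic, Cebpe, Irf4 and Ikzf3 were removed by the filter on low counts. Between LJP and Vehicle 0 of the 16 tested relatives passed in edgeR, with 7 at an unadjusted p below 0.05 and 4 called by DESeq2. Of the 7, Cbfb, Runx3, Irf1 and Ddit3 were lower in LJP mice, and Runx1t1, Cebpg and Ikzf5 were higher, where 12.3% of all tested genes were higher. DESeq2's 4 were 2 lower and 2 higher, against 3.81% of genes higher. In edgeR, Cbfb, Runx3 and Irf1 were called without Vehicle mouse 3 or 4, and Runx1t1 and Ikzf5 also without Vehicle mouse 3. Between LJP and Sham Irf7 and Irf9 were higher and no other relative passed. Neither was called without any 1 of the Sham mice or without LJP mouse 1 or 3, and Irf7 alone was without LJP mouse 4, while Cbfb and Runx1t1 were called as well without Vehicle mouse 2.

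Among 24 other regulators of myeloid cells, 22 were tested, of which 13 rose and 1 fell between Vehicle and Sham (median log2 fold change 0.74). Without 1 mouse, 10 to 15 were called. Sall1, a microglia factor, rose by 0.66 (edgeR adjusted p = 0.00304), while Mef2c, which neurons also express, fell by 0.53 on the log2 scale (0.0300) and Maf was at 0.16 (0.434). The call of Mef2c was lost without Sham mouse 1, 3 or 4 or Vehicle mouse 2 (adjusted p up to 0.0774), and Maf was called without Vehicle mouse 1. In LJP against Vehicle 0 passed in edgeR, 7 were lower at an unadjusted p below 0.05, and DESeq2 called 7 lower. Without Vehicle mouse 3 or 4, edgeR called 7. Against Sham 3 were higher in the LJP mice, Sall1 and Lyl1 among them. Without any 1 of the Sham mice or LJP mouse 1, 2 or 3 the call of Lyl1 was lost and 2 were called, and without Vehicle mouse 2 there were 6.

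Known target genes of the factors were counted in the same way. Of 25 myeloid targets, which include growth factor receptors, integrins and subunits of the phagocyte oxidase, 23 were tested and 22 rose between Vehicle and Sham, with a median log2 fold change of 2.64. Csf1r, the receptor that keeps microglia alive, rose from 99.8 ± 3.92 to 239 ± 54.0 CPM (log2 fold change 1.26, edgeR adjusted p = 0.000600). Csf2rb rose by 4.38 (adjusted p = 0.000209), Csf3r by 2.46 (0.000338) and Csf2ra by 0.61 (0.00118), and Prtn3 did not pass (0.45, adjusted p = 0.289). Between LJP and Vehicle 0 passed in edgeR and 13 were lower at an unadjusted p below 0.05, with a median of -0.73. Csf2rb was at -1.77 (edgeR adjusted p = 0.0678) and Csf3r at -1.07 (0.0720), whereas Csf1r (-0.19, 0.505) and Csf2ra (-0.17, 0.278) differed by less than 0.2. DESeq2 called 10 lower, and edgeR called 11 without Vehicle mouse 3 and 9 without Vehicle mouse 4. Against Sham 21 were higher in the LJP mice, but 13 without Sham mouse 1, 3 or 4 or LJP mouse 3.

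The acute phase targets of C/EBP showed the widest changes. All 9 tested genes of 12 listed rose between Vehicle and Sham, with a median log2 fold change of 4.41, and 8 were called without Vehicle mouse 2. Lcn2, which encodes an iron-scavenging secreted protein, had 0.519, 0.708, 0.658 and 0.259 CPM in Sham mice, 166, 107, 16.5 and 16.7 in Vehicle mice and 5, 12.3, 12.6 and 13.9 in LJP mice. It shared the split of Cebpb and Cebpd among the Vehicle mice, and the LJP mice lay between the other groups without overlap. Its log2 fold change was 7.15 between Vehicle and Sham (edgeR adjusted p = 0.000228) and -2.81 between LJP and Vehicle (0.0678). Saa3, an acute phase serum amyloid, had 0, 4, 2 and 1 counts in Sham, 1180, 290, 89 and 49 in Vehicle and 3, 13, 15 and 10 in LJP mice.

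Hp, which encodes haptoglobin, was at 0.552 ± 0.28 CPM in Sham, 11.5 ± 11.9 in Vehicle and 0.566 ± 0.34 in LJP mice (log2 fold change between LJP and Vehicle -4.31, edgeR adjusted p = 0.0678). Lbp, the lipopolysaccharide-binding protein gene, was at 5.53 ± 2.76, 29.5 ± 25.9 and 5.62 ± 2.93 CPM (-2.40, 0.0678). Of the list, 8 of 9 were lower in LJP than in Vehicle mice at an unadjusted p below 0.05, 8 in DESeq2 and 0 in edgeR at an adjusted p of 0.05, with a median of -2.49. Without Vehicle mouse 3 or 4, edgeR called 8. Lcn2 and Ptx3 were higher in the LJP than in the Sham group, but neither was called without any 1 of the Sham mice, and Lcn2 alone was without LJP mouse 1, 2 or 3. Without Vehicle mouse 3 there were 3 calls.

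**Figure D5:**
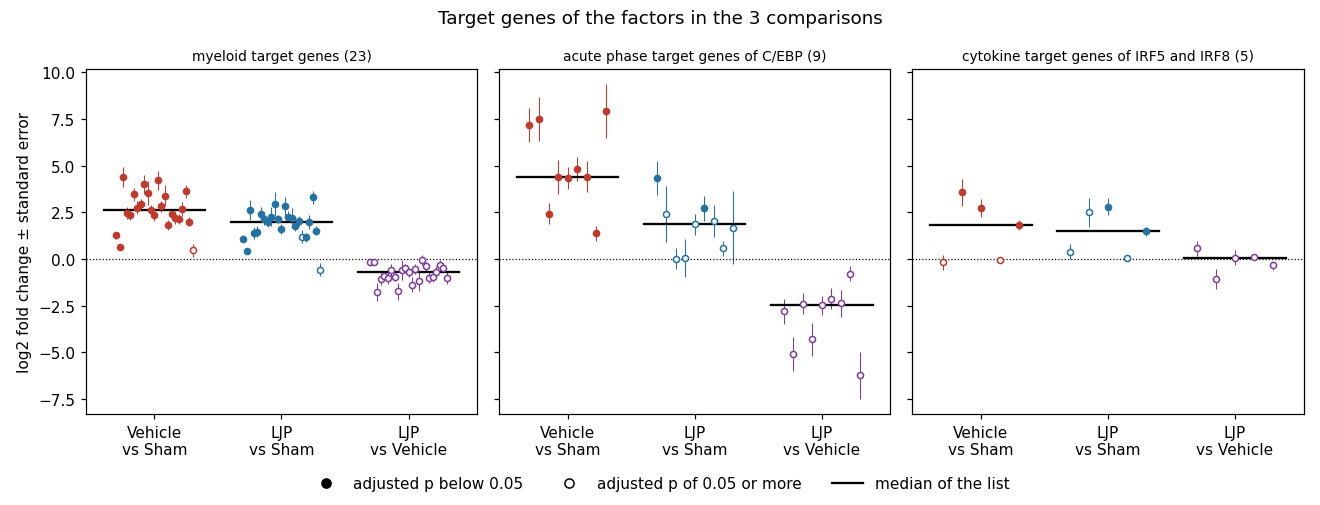
Log2 fold change (vertical axis, with standard error) of the tested genes of 3 target lists in the 3 comparisons, in list order, with the median as a black line. The acute phase list moves from a median of 4.41 in Vehicle vs Sham to -2.49 in LJP vs Vehicle, against 2.64 and -0.73 for the myeloid targets.

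Of 10 listed cytokine targets of IRF5 and IRF8, 5 were tested in edgeR, and Il12b, Il23a, Il6, Tnf and Ifnb1 were removed by the filter on low counts. Tnf, the gene of tumor necrosis factor, had 0, 1, 4 and 0 counts in Sham, 32, 15, 21 and 9 in Vehicle and 6, 3, 7 and 3 in LJP mice. Every Vehicle mouse was thus above every Sham mouse, as for 20.7% of tested genes, and above every LJP mouse, as for 5.91%, which describes a gene named after its values were seen. Il6, the gene of interleukin 6, had 0, 1, 0 and 0 counts in Sham, 52, 16, 3 and 1 in Vehicle and 1, 0, 1 and 0 in LJP mice, again highest in Vehicle mice 1 and 2. Between Vehicle and Sham DESeq2 called both (adjusted p = 9.82e-05 for Tnf and 0.00113 for Il6), and between LJP and Vehicle it gave neither an adjusted p. Ccl5 and Cxcl10, chemokines for T cells and monocytes, reached only 1.03 ± 0.45 and 1.76 ± 0.79 CPM in the Vehicle group, yet both rose (log2 fold changes 3.56 and 2.74, edgeR adjusted p = 0.00247 and 0.00129), as did Ctss. Ciita, the switch of MHC class II genes, was at -0.05 (adjusted p = 0.751) and Il12a at -0.19 (0.738). In LJP against Vehicle 0 of the 5 passed in edgeR or in DESeq2, and 0 were lower at an unadjusted p below 0.05. The 2 chemokines were at -1.07 for Ccl5 (edgeR adjusted p = 0.198) and 0.07 for Cxcl10 (0.917), and Il12a and Ciita at 0.57 (0.342) and 0.12 (0.502). Against Sham, edgeR called Cxcl10 and Ctss higher in the LJP mice, also without any 1 mouse. Without Vehicle mouse 2, Ccl5 was called as well.

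Of 15 genes that act upstream of the factors, 11 rose and 1 fell between Vehicle and Sham (median log2 fold change 1.20). These 12 calls became 11 without any 1 mouse other than Vehicle mouse 3 or 4. Csf1, the ligand of Csf1r, rose by 1.84 (edgeR adjusted p = 0.000140), while Il34, its neuronal alternative ligand, fell by 0.38 on the log2 scale (0.0107). The receptor chains of interleukin 6, which signal to STAT3 and Cebpd, rose as well, Il6ra by 1.84 (adjusted p = 0.00133) and Il6st by 0.69 (0.0135). Between LJP and Vehicle 9 of the 15 were lower at an unadjusted p below 0.05, 6 in DESeq2 and 0 in edgeR at an adjusted p of 0.05, which became 9 without Vehicle mouse 3 and 8 without Vehicle mouse 4. Csf1, Osmr, Tlr7 and Tlr9 were higher in LJP than in Sham mice, and 3 to 6 genes were called without 1 mouse. Of the 3 genes that direct C/EBP alpha to degradation, the adaptor gene Trib1 rose by 0.96 (edgeR adjusted p = 0.00232), and Trib2 and the ubiquitin ligase gene Cop1 fell by 0.67 (0.00178) and 0.32 (0.00828) on the log2 scale. Between LJP and Vehicle edgeR called none of the 3, but all 3 without Vehicle mouse 3 and Trib1 without Vehicle mouse 4.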

How the data were processed

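RNA sequencing was performed on poly(A) RNA of ischemic hemispheres, 4 mice per group. The authors deposited raw counts per gene and mouse, without normalization. Their processing notes list featureCounts, DESeq2, GRCm39 and mm10, with no roles or versions. Positions in the deposited table equal GRCm38. The aligner, the strand setting and the handling of shared reads are not given in the sources used here.

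edgeR 4.0.16 (R 4.3.3) was used for the main test. It kept 17558 genes by filterByExpr, scaled libraries by TMM and estimated 1 level per group from all 12 mice by quasi-likelihood. Benjamini-Hochberg adjustment was made over all tested genes, and an adjusted p below 0.05 was called. Log2 CPM used a prior count of 2. Exact permutation tests were two-sided over all 70 splits of 8 mice. DESeq2 1.42.0, other normalizations, no filter, fits of 2 groups, a replicate block, a prior count of 0.5, the study's thresholds and leaving out each mouse were tried as alternatives. No 2 mice of a group agreed within sampling noise (chi-square per degree of freedom at least 2.57). The p-values set group differences against the spread between these mice. Nothing in the labels says how mice were housed, so the independence of the mice could not be checked. Floors cover counting error only.

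The members and the gene lists, written from general knowledge, were chosen with earlier results of these data known. Named in the text are every member, every tested gene of the relatives lists, the first 4 tested genes of each pathway list in written order, and the 3 genes with the highest r per member, except 2 list genes that are not reported here. Prtn3, Ptx3, Ctss, Lyl1, Osmr, Tlr7, Tlr9, Tnf, Il6, Fn1 and Cd4 were named after their values were seen, to account for counts and sums. So were Cxcr2, Ly6g and Retnlg, for their 0 counts in Sham mice. Relatives and cytokine targets that the filter on low counts removed are named as well. Plots were drawn with matplotlib 3.10.9.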

Additional observations from a re-analysis of the deposited data

Results flagged for a closer look

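Cebpa in Vehicle mouse 2, at 112 CPM, stood far from the other Vehicle mice, which lay between 62.1 and 70.6 CPM. Its gap to the nearest mouse made up 0.8293 of the range of the group, just over the 95% critical value of Dixon's test for 4 samples. It was the only such value among 24 sets of 4 mice, and chance alone flags about 1 in 20. Without this mouse Cebpa was still higher in Vehicle than in Sham mice, with a log2 fold change of 1.74. The same mouse had the highest sums of border macrophage and endothelial markers, and of infiltrating macrophage markers with Fn1 but not without it, and their part in the value was not tested.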

How the results depend on the processing

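No member changed direction under any alternative, in 144 values per comparison. Between Vehicle and Sham all 8 members were called under every alternative, DESeq2 and the 12 fits without 1 mouse included. Between LJP and Vehicle edgeR called 0 members, DESeq2 called 6, the study's thresholds 6 and the fit without the filter on low counts 4, and leaving out 1 mouse gave 0 to 6, with 6 only without Vehicle mouse 3 or Vehicle mouse 4. The count over all genes moved from 4 to 2307 with DESeq2, to 593 without the filter, to 3857 without Vehicle mouse 3 and to 2095 without Vehicle mouse 4, and the cause was not tested. Between LJP and Sham 6 to 7 members were called without 1 mouse and 8 when only these groups were fitted, when 4043 genes were called in place of 834. Over all genes, DESeq2 called 1454 there and fits without 1 mouse 393 (without LJP mouse 3) to 2357 (without Vehicle mouse 2), and in Vehicle vs Sham the study's thresholds called 3807 in place of 7014. Same-number correlations between groups ran from -0.32 to 0.11, without a test. They cannot show whether a shared number marks a shared cage or surgery day. With the replicate block 8, 0 and 6 members were called in Vehicle vs Sham, LJP vs Vehicle and LJP vs Sham, with Cebpd lost in the last (adjusted p = 0.0507), and 6110, 2 and 464 genes in all. A prior count of 0.5 left all 24 exact p-values on the same side of 0.05.

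Among other named genes, uncalled values near 0 changed sign. Between Vehicle and Sham, Ciita was at 0.027 with library size only and between -0.14 and 0.0061 without 1 mouse, Ikzf2 between -0.19 and 0.057 and Il12a between -0.51 and 0.086. Between LJP and Vehicle, Cxcl10 lay between -0.21 and 0.31. The SD among the 4 Vehicle mice was 62% of the mean for Cebpb and 69.5% for Cebpd, on counts of at least 568, which limits the comparison of LJP with Vehicle.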
